A study of Macaca mulatta with 24 samples.

Results

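The genes described here prepare peptides for display to T cells, and they were followed in the ileum of rhesus macaques (Macaca mulatta) after total-body irradiation (TBI). The rule named 10 genes, CD74, CIITA, TAP1, TAP2, TAPBP, PSMB8, PSMB9, PSMB10, B2M and NLRC5, and took every probe that carried one of these symbols in the authors' normalized ileum table. It found 12 probes of 43603, for 7 of the 10 genes. B2M and TAPBP have 3 probes each, PSMB9 has 2, and TAP1, PSMB10, NLRC5 and CD74 have 1 each. CIITA, TAP2 and PSMB8 have no probe by symbol or by accession and are not described further. All 12 probes were well above background on all 24 arrays and none was saturated, so all 12 passed the filter on dim probes. A gene is represented below by its brightest probe, and values of other probes are named as such.

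Cytosolic proteins are cut to peptides by the proteasome, in which PSMB9 and PSMB10 replace constitutive catalytic subunits to form the immunoproteasome. The TAP transporter, of which TAP1 is a subunit, carries the peptides into the endoplasmic reticulum, where tapasin (TAPBP) helps to load them onto class I molecules of the major histocompatibility complex (MHC), whose light chain is B2M, and NLRC5 is a transactivator of the genes of this pathway. CD74, the invariant chain, instead guides class II molecules to the compartments where extracellular antigens are loaded; in the small intestine class II molecules are carried by macrophages, dendritic cells and B cells and also by epithelial cells, and interferon gamma induces both pathways.

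The study asked how segments of the primate gut respond to TBI at different doses and times. Ileum came from 24 male animals: 4 unirradiated controls, labelled day 4 with a dose of 0 Gy, and animals given a single TBI of 6.7 Gy or 7.4 Gy, with 4 animals at each dose on day 4, 4 at each dose on day 7 and 2 at each dose on day 12. RNA from pieces of whole gut was hybridized to Agilent one-color arrays, 1 array for each animal. The same 4 controls serve every comparison with unirradiated ileum, so these 6 comparisons are not independent of each other.

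Signals are log2 values on which 0 is the 75th percentile of the array, and changes are differences of these values. Comparisons were fitted with limma over all 36108 probes that passed the filter, and every adjusted p below is limma's after Benjamini-Hochberg adjustment over these probes. A probe was called at an adjusted p under 0.05 and a fold change of at least 2. The share of probes well above background was 83.2% to 88.1% on control arrays and 72.7% to 87.3% on irradiated arrays. The bile acid genes FABP6 and SLC10A2, which mark ileal enterocytes, were above background on all 24 arrays. There were 6 slides, each with 4 array positions. Controls occupy only position 1, and no day 7 or day 12 array lies at position 1 or 2, so the position on the slide and the day cannot be told apart where day 7 or day 12 is compared with controls or with day 4. All 4 arrays of day 4 after 7.4-Gy TBI lie at position 2, so there too position and irradiation cannot be told apart from these 2 groups alone. The position term for day 4 rests on the 6.7-Gy arrays, 2 at position 1 and 2 at position 2.

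The clearest pattern lay between days. PSMB9 and TAP1 had their lowest means on day 4 at both doses and were higher on days 7 and 12, whereas CD74 had its lowest means on day 7. Other class I genes did not share the rise of PSMB9 and TAP1 to day 7. The light chain B2M differed by -0.0015 between days 7 and 4 on its brightest probe. Of 33 probes of class I heavy chains, 29 were lower on day 7 than on day 4, as CD74 was. Against unirradiated ileum, 1 of the 7 genes was called in 1 of the 6 comparisons, which was PSMB9 at 4 days after 7.4-Gy TBI. The plot of signals by animal shows all 7 genes.

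**Figure D1:**
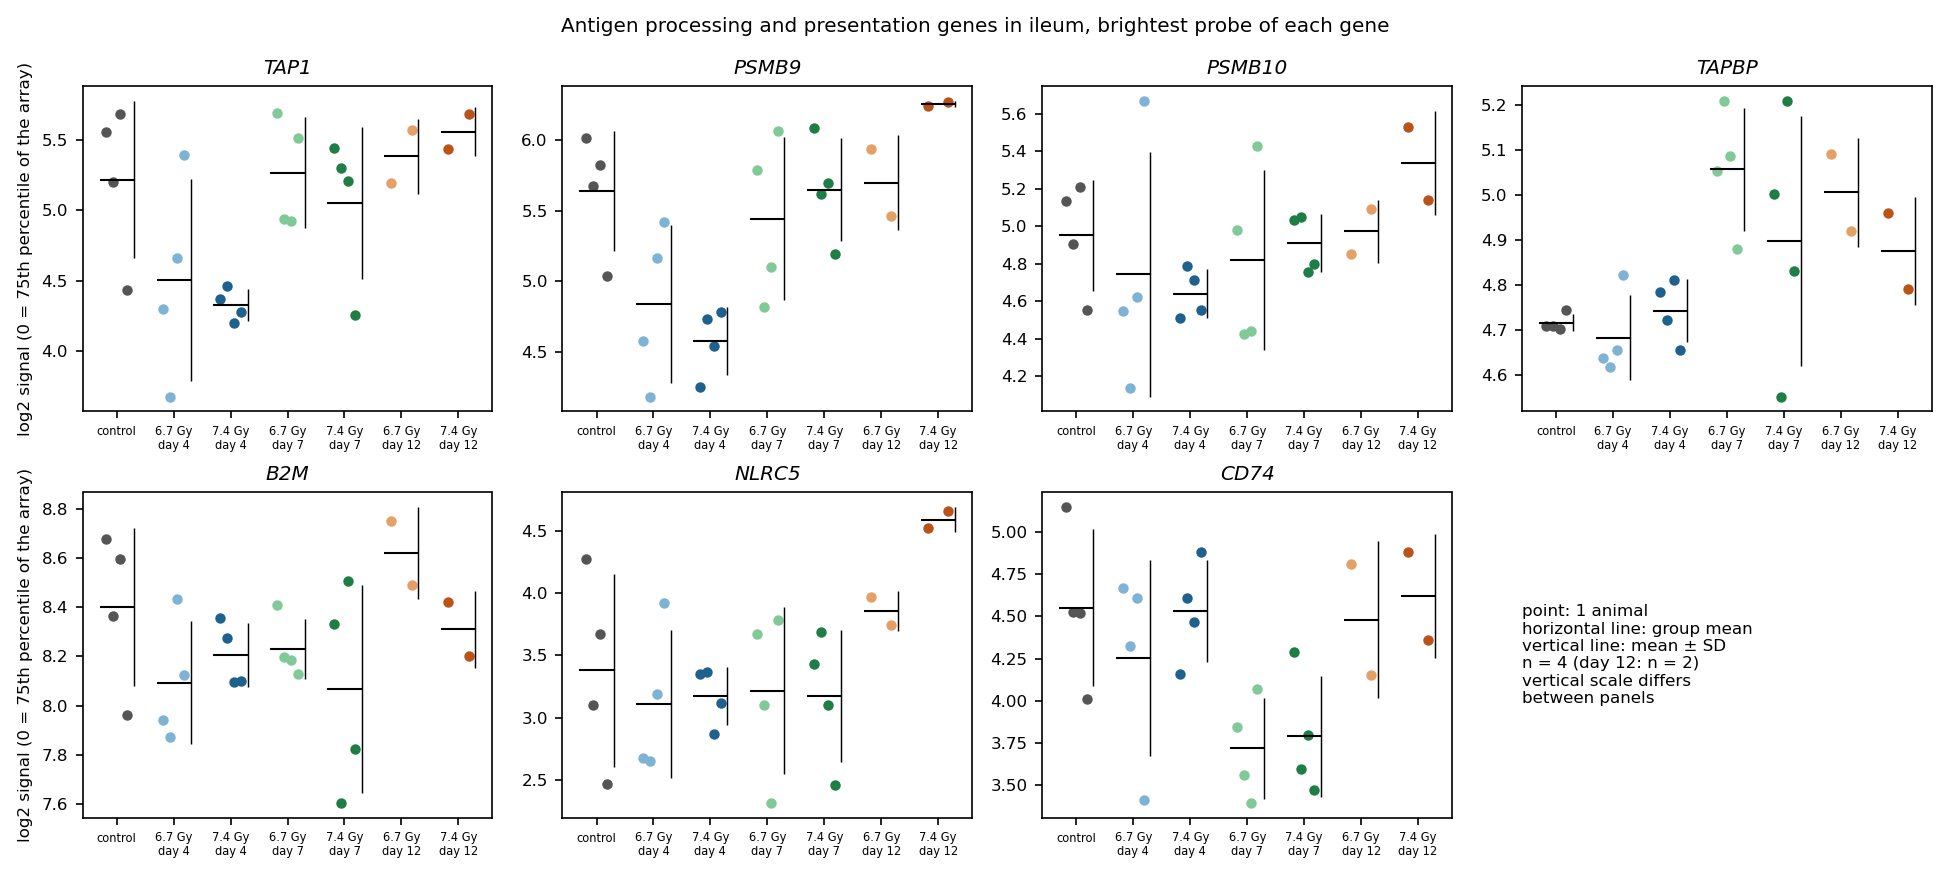
Signal of the brightest probe of each of the 7 genes (vertical axes, log2 relative to the 75th percentile of the array, with a separate range in each panel) in each animal (points) of the 7 groups (horizontal axes), with the group mean and ± SD (n = 4, on day 12 n = 2). PSMB9 and TAP1 were lowest on day 4, with means of 4.58 and 4.33 after 7.4-Gy TBI, CD74 was lowest on day 7, and NLRC5 was highest 12 days after 7.4-Gy TBI, with a mean of 4.59.

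PSMB9 was the gene with the called change. In the 4 controls its signal was 6.02, 5.67, 5.83 and 5.04. On day 4 it was 4.58, 4.18, 5.17 and 5.42 at the lower dose and 4.25, 4.73, 4.54 and 4.78 at the higher dose. All 4 animals of the higher dose lay below all controls, as they did on 7.91% of all tested probes, while those of the lower dose overlapped with them. On day 7 the values were 5.79, 4.82, 5.10 and 6.07 after the lower dose and 6.09, 5.62, 5.70 and 5.20 after the higher dose. On day 12 the 2 animals had 5.94 and 5.46 after the lower dose and 6.24 and 6.27 after the higher dose. The day 7 groups overlapped with the controls. On day 12 the changes from controls were 0.0625 and 0.62 at the lower and the higher dose, and on the second probe 0.54 and 0.89, with none past the test. The 2 animals 12 days after 7.4-Gy TBI were above the highest control, as they were on 8.43% of all tested probes.

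At 4 days after 7.4-Gy TBI, PSMB9 fell by 1.06 on the log2 scale (SE 0.29, adjusted p = 0.0346), a 2.09-fold decrease. It was the only 1 of the 7 genes called in this comparison, in which 0.734% of all tested probes were called lower and 1.6% higher. The second PSMB9 probe changed by -0.85 (adjusted p = 0.0813). With the slide as a block the change of the brightest probe was -0.98 (adjusted p = 0.103), and the call was lost without control 1, 2 or 3 or animal 1, 3 or 4 of the irradiated group (adjusted p up to 0.115). After 6.7-Gy TBI the change was -0.80 (SE 0.29, adjusted p = 0.121). With the array position as a covariate the changes of PSMB9 on day 4 were -1.26 and -1.98 at the lower and the higher dose (adjusted p = 0.129 and 0.151).

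The groups of TAP1 stood in an order like that of PSMB9. Its signal was 5.55, 5.20, 5.68 and 4.43 in the controls. On day 4 it was 4.30, 3.68, 4.66 and 5.39 at the lower dose and 4.37, 4.46, 4.20 and 4.28 at the higher dose. The 4 animals of the higher dose lay close together around the lowest control, control 4, and below the other 3. On day 7 the values were 5.69, 4.94, 4.93 and 5.51 after the lower dose and 5.44, 5.30, 5.21 and 4.26 after the higher dose, and on day 12 they were 5.19 and 5.57, and 5.44 and 5.68. Both of these days overlapped with the controls. Against controls the day 4 changes were -0.71 (SE 0.32, adjusted p = 0.196) at 6.7 Gy and -0.89 (SE 0.32, adjusted p = 0.0984) at 7.4 Gy. Without control 4 the latter was -1.15 (adjusted p = 0.0389) and TAP1 was then called as well. With the position as a covariate they were -1.23 (adjusted p = 0.218) and -1.93 (adjusted p = 0.24).

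PSMB10, the third gene of this arm, varied less between groups. Its control values lay between 4.55 and 5.21, and its group means ran from 4.64 on day 4 to 5.34 on day 12, both after 7.4-Gy TBI. The changes on day 4 were -0.21 at 6.7 Gy and -0.31 at 7.4 Gy (adjusted p = 0.639 and 0.501), and with the position as a covariate they were -0.61 and -1.11 (adjusted p = 0.423 and 0.321). The widest group was day 4 after 6.7-Gy TBI, at 4.14 to 5.67.

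The 3 TAPBP probes disagreed. On the brightest probe (A_01_P1743946) the controls lay within 4.70 to 4.74, and the day 4 changes were -0.03 and 0.03 at 6.7 Gy and 7.4 Gy. On the second (A_01_P1743941) the controls were at 1.87, 1.38, 1.84 and 1.27, the day 4 animals at 1.09, 1.19, 1.26 and 1.03 after the lower dose and at 1.12, 1.22, 1.08 and 1.20 after the higher dose, all below every control, as 7.71% and 7.91% of all tested probes were at the 2 doses. Its changes were -0.45 (adjusted p = 0.0878) and -0.43 (adjusted p = 0.0728). On the third (A_01_P002362), the dimmest, the changes were -0.66 and -0.57 (adjusted p = 0.171 and 0.229). On day 7 the brightest probe was 0.34 and 0.18 above controls, whereas the other probes were between 0.16 and 0.45 lower, and none of these differences passed the test. The direction of TAPBP therefore depends on the probe read.

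B2M, the light chain shared by all class I molecules, differed little between groups on its brightest probe. Its controls were at 7.96 to 8.68, and group means ran from 8.07 at 7 days after 7.4-Gy TBI to 8.62 at 12 days after 6.7-Gy TBI. The changes on day 4 were -0.31 and -0.19 (adjusted p = 0.321 and 0.569); after quantile normalization they were 0.01 and 0.03, so their sign depends on the scaling, and with the position as a covariate they were -0.49 and -0.57 (adjusted p = 0.381 and 0.452). On day 7 all 3 probes were lower than in controls at both doses, by 0.17 to 0.48, and none passed the test. At 12 days after 7.4-Gy TBI the probes disagreed in sign, with the brightest at -0.0897 and the others at 0.50 and 0.16.

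**Figure D2:**
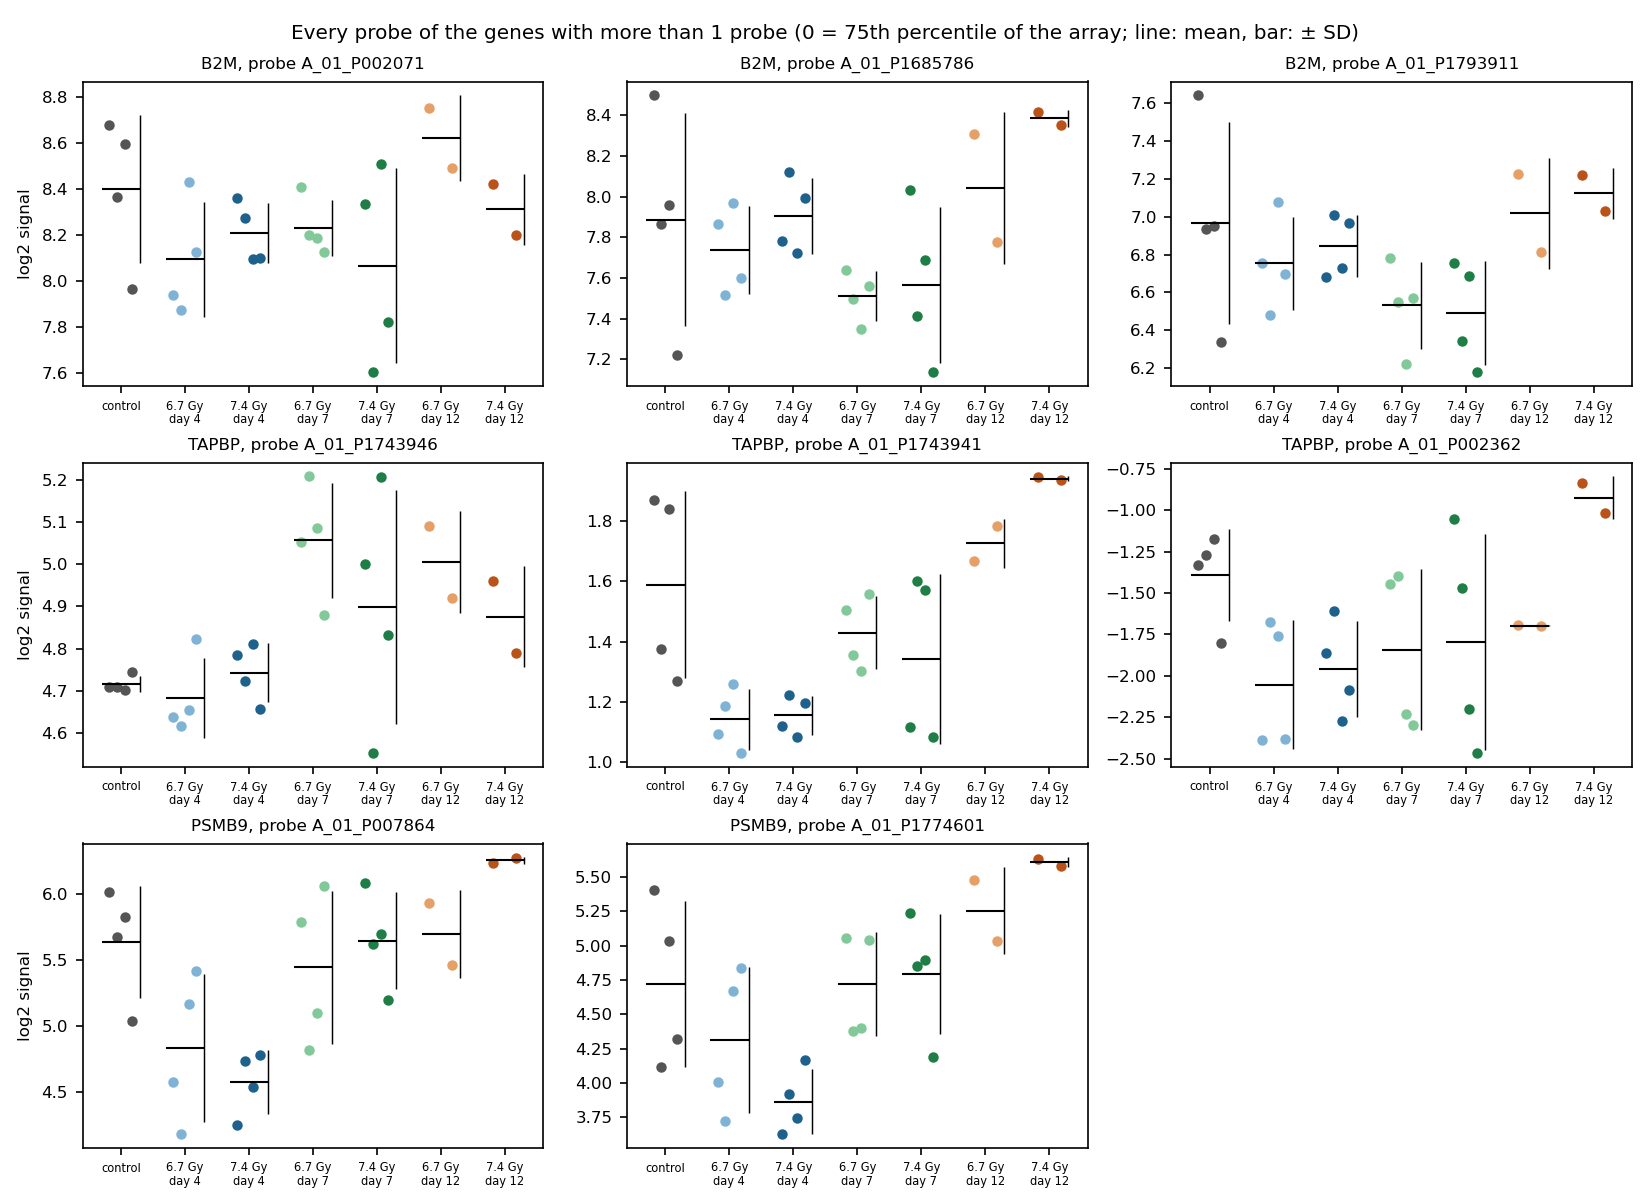
Signal (vertical axes, log2 relative to the 75th percentile of the array) of every probe of B2M, TAPBP and PSMB9 in each animal of the 7 groups, with the group mean and ± SD (n = 4, on day 12 n = 2). Both PSMB9 probes had their lowest means 4 days after 7.4-Gy TBI (4.58 and 3.86), whereas the brightest TAPBP probe lay at 4.72 in controls and 4.74 in that group and the other TAPBP probes were lower there than in controls.

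NLRC5 had the widest spread among control animals. Its signal was 4.28, 3.10, 3.67 and 2.47 in the controls, and its mean in each of the groups of days 4 and 7 lay between 3.11 and 3.22. With the position as a covariate its changes on day 4 were -0.72 and -1.098 at the lower and the higher dose (adjusted p = 0.499 and 0.47). On day 12 it was 3.97 and 3.74 at the lower dose and 4.52 and 4.66 at the higher dose. The 2 animals of the higher dose were above every control, as they were on 8.43% of all tested probes. The change of NLRC5 there was 1.21 (SE 0.45, adjusted p = 0.442) and did not pass the test.

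CD74 was the only gene of the class II arm with a probe. Its signal was 5.15, 4.52, 4.52 and 4.01 in the controls, 4.67, 4.32, 4.61 and 3.41 at 4 days after 6.7-Gy TBI, and 4.16, 4.61, 4.47 and 4.88 at 4 days after 7.4-Gy TBI. On day 7 it was 3.84, 3.56, 3.39 and 4.07 after the lower dose and 4.29, 3.59, 3.80 and 3.47 after the higher dose. On day 12 it was 4.81 and 4.15, and 4.88 and 4.36. In both day 7 groups 3 of 4 animals lay below the lowest control. The changes on day 7 were -0.83 (95% confidence interval -1.42 to -0.25, adjusted p = 0.281) and -0.76 (-1.35 to -0.18, adjusted p = 0.235), and the changes on days 4 and 12 lay between -0.30 and 0.07.

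**Figure D3:**
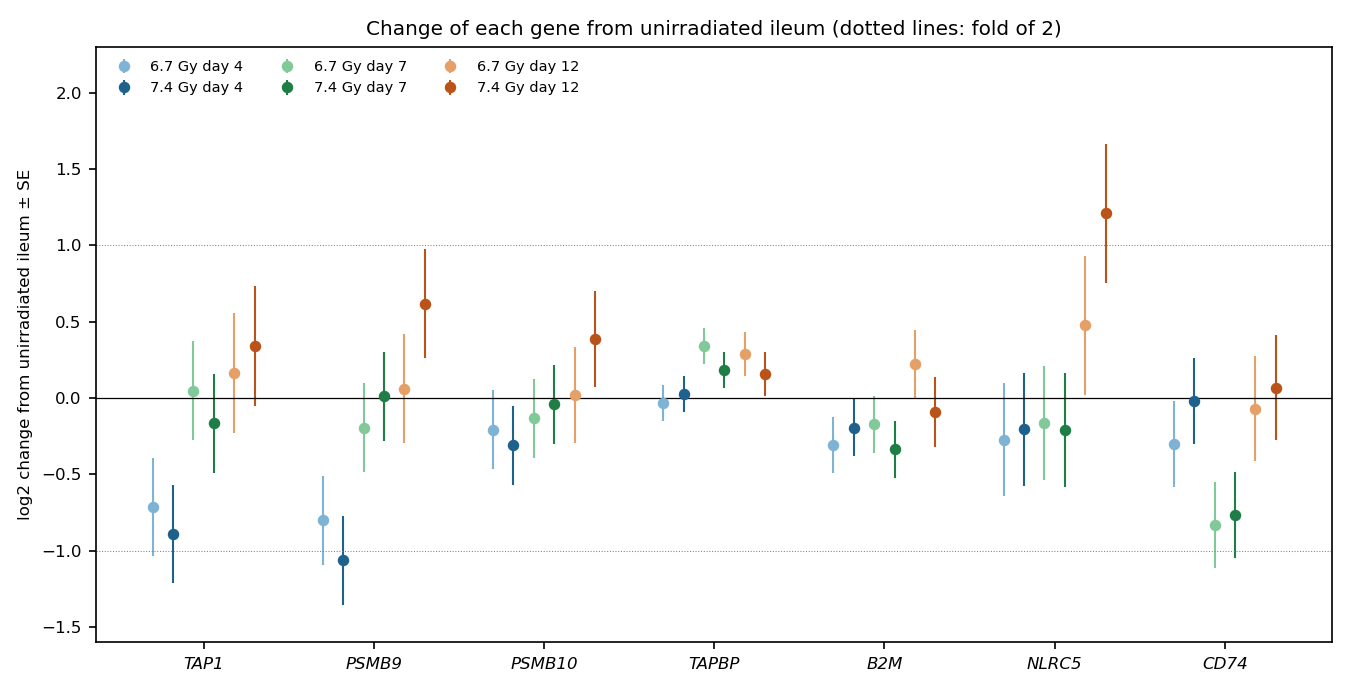
Change of each gene from unirradiated ileum (vertical axis, log2, limma estimate ± SE) in the 6 irradiated groups (colors), by the brightest probe (4 controls, n = 4 a group, on day 12 n = 2); dotted lines mark a fold of 2. PSMB9 at 4 days after 7.4-Gy TBI, with -1.06, is the 1 called change, and NLRC5 at 12 days after 7.4-Gy TBI, with 1.21, is past a fold of 2 without passing the test.

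Counted together, on day 4 all 12 probes were lower than in controls after 6.7-Gy TBI and 10 of 12 after 7.4-Gy TBI, with a median over the 7 genes of -0.30 and -0.20 against -0.10 and -0.07 over all tested probes. After quantile normalization the brightest probes of B2M and TAPBP were instead 0.01 and 0.06 above controls at the lower dose, and those of B2M and CD74 0.03 and 0.10 above at the higher dose. After 6.7-Gy TBI 0 of 7 genes were called by limma, where 0.382% of all probes were called lower and 0.595% higher, and at an unadjusted p under 0.05 there were 4 of 12 probes lower, against 13.7% of all probes. These were the brightest probes of PSMB9 and TAP1 and the dimmer probes of TAPBP. On day 7 no gene was called at either dose, where 0.183% and 0.454% of all probes were called lower and 0.0526% and 0.114% higher. At an unadjusted p under 0.05, 1 probe was lower and 1 higher at 6.7 Gy (4.79% and 4.57% of all probes) and 2 were lower at 7.4 Gy (7.55% of all).

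On day 12 no gene was called either. Of all probes, 0.0332% were called higher and 0.0748% lower at 6.7 Gy, against 0.0194% and 0.0249% at 7.4 Gy. At an unadjusted p under 0.05 there were 0 of 12 probes after the lower dose (5.27% of all probes were higher and 3.71% lower) and 2 higher after the higher dose (3.29% of all). After 7.4-Gy TBI 6 of 12 probes lay above every control in both animals, a position shared by 8.43% of all tested probes. These were every probe of PSMB9 and of TAPBP and the probe of NLRC5, so they stand for fewer genes than probes. The brightest TAPBP probe was only 0.16 above controls, whose SD on it was 0.02.

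Control 4 had the lowest of the 4 control values on 10 of the 12 probes and control 1 the highest on 8. The median SD over the controls was 0.45 for the 12 probes and 0.24 for all tested probes. The error of each comparison with controls is set in part by this spread.

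The 2 doses did not differ detectably. With days 4 and 7 pooled, the differences between 7.4-Gy and 6.7-Gy TBI over the 7 genes ran from -0.20 for TAP1 (95% confidence interval -0.67 to 0.28) to 0.17 for CD74 (-0.24 to 0.59), and 0 of 12 probes reached an unadjusted p under 0.05. No probe of the array was called in this comparison (0% of all tested probes), where limma gave an unadjusted p under 0.05 to 3.29% of all probes in the higher and 2.38% in the lower direction.

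Between days, with the doses pooled, PSMB9 was 0.84 higher on day 7 than on day 4 (SE 0.21, adjusted p = 0.0119) and its second probe 0.67 higher (adjusted p = 0.0385). TAP1 was 0.74 higher (SE 0.23, adjusted p = 0.0371), TAPBP 0.26 higher on its brightest probe (SE 0.08, adjusted p = 0.0412), and CD74 0.64 lower (SE 0.20, adjusted p = 0.0393). These 4 of 7 genes passed the adjusted p, 3 upward and 1 downward, where 7.63% of all probes passed upward and 5.56% downward, and none reached a fold of 2, which 0.645% of all probes did upward and 0.41% downward. PSMB10, B2M and NLRC5 differed by 0.17, -0.0015 and 0.05 on their brightest probes, and the other B2M probes by -0.28 and -0.29 (adjusted p = 0.229 and 0.205).

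The PSMB9 difference between days 7 and 4 passed the adjusted p in all 24 fits that left out 1 animal and in all 9 other settings, at 0.71 to 0.94. Without 1 animal, TAP1 passed in 14 of the 24 fits (0.60 to 0.89, adjusted p up to 0.0755), TAPBP in 12 (0.21 to 0.32, up to 0.0902) and CD74 in 12 (-0.78 to -0.57, up to 0.0801). The 10 fits in which TAP1 did not pass, and the 12 each for TAPBP and CD74, all left out an animal of day 4 or day 7. Leaving out an animal of a group that is not compared cannot change the difference itself, here and in the counts of such fits below. TAP1 passed in 4 of the 9 other settings. It did not pass with the slide as a block (0.68, adjusted p = 0.094), after quantile normalization (0.62, adjusted p = 0.0639), with normexp (0.69, adjusted p = 0.0565), with the replicate number as a block (0.74, adjusted p = 0.0523) or without the filter on dim probes (0.74, adjusted p = 0.0502). CD74 passed in 8 of these 9 and TAPBP in 5. For TAP1 and CD74, with 1 probe each, the mean of a gene's probes is the main estimate itself and could not differ. The authors' normalized table has the same scaling, and its values, 0.74 for TAP1 and -0.64 for CD74, repeat the main ones. TAPBP differed by 0.10 after quantile normalization (adjusted p = 0.358), by 0.23 with the slide as a block (adjusted p = 0.0732) and by 0.23 as the mean of its probes (adjusted p = 0.0977), and on its other probes by 0.24 and 0.19 (adjusted p = 0.122 and 0.561). Within the 6 slides PSMB9 and TAP1 were each higher on day 7 than on day 4 in 5, and CD74 was lower in 5.

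From day 4 to day 12 all 7 genes were higher and 3 were called upward, where 1.54% of all probes were called upward and 1.21% downward. PSMB9 was 1.27 higher (SE 0.25, adjusted p = 0.00325) and its second probe 1.34 higher (adjusted p = 0.0024), a 2.42-fold and a 2.54-fold increase. TAP1 was 1.05 higher (SE 0.28, adjusted p = 0.0158) and NLRC5 1.08 higher (SE 0.32, adjusted p = 0.027). On both PSMB9 probes all 4 animals of day 12 lay above all 8 of day 4, as they did on 5.04% of all tested probes, while TAP1 and NLRC5 overlapped. The second TAPBP probe was 0.68 higher (adjusted p = 0.0018), under a fold of 2, again without overlap (10.7% of all probes passed the adjusted p upward and 6.8% downward), and the brightest was 0.23 higher (adjusted p = 0.12).

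PSMB9 passed the adjusted p in all 24 fits without 1 animal (1.15 to 1.39). Without the second 6.7-Gy animal or either 7.4-Gy animal of day 12, PSMB9 was the only gene still called: the adjusted p of TAP1 was then 0.0686, 0.0516 and 0.0516 and that of NLRC5 0.0626, 0.0821 and 0.0697. TAP1 also fell short of a fold of 2 without the second 6.7-Gy animal of day 4 (0.92, adjusted p = 0.0235) and with normexp (0.99, adjusted p = 0.024). With the replicate number as a block NLRC5 did not pass (0.96, adjusted p = 0.08). TAPBP passed as the mean of its probes (0.54, adjusted p = 0.00424) and with normexp (0.29, adjusted p = 0.0365), and B2M with the slide as a block (0.36, adjusted p = 0.0463). Within the 4 slides that hold both days, each of the 7 genes except CD74 was higher on day 12 in all 4.

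From day 7 to day 12 no gene passed the adjusted p. CD74 was 0.80 higher (SE 0.24, adjusted p = 0.152) and NLRC5 1.03 higher (SE 0.32, adjusted p = 0.16). With the array position as a covariate these were 1.028 and 1.61 (adjusted p = 0.297 and 0.237). In all, 7 of 12 probes were higher at an unadjusted p under 0.05, against 8.35% of all probes. Of the brightest probes only those of CD74 and NLRC5 were among them. The others were further probes of B2M, TAPBP and PSMB9. The brightest probes of these genes had an unadjusted p of 0.0635, 0.721 and 0.103 by limma, so the count rests on several probes of the same genes. In this comparison 0.0886% of all probes were called higher and 0.0249% lower.

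Over the 24 animals PSMB9, TAP1, PSMB10 and NLRC5 varied together. Of 21 pairs of genes, all 6 pairs among these 4 and the pair of TAP1 and B2M passed a permutation test of Pearson's r after Benjamini-Hochberg adjustment. The permutations moved animals freely between groups, so differences between groups that 2 genes share count toward these p-values. The values of r within groups and within slides carry no test. The share of all probe pairs that reach such an r was not computed. For TAP1 and PSMB9 Pearson's r was 0.89 and Spearman's rho 0.83 (n = 24 for each; permutation p = 1e-05 for both, the smallest these permutations can give; adjusted p = 0.00011 and 7e-05). Without the 2 animals farthest from the median of TAP1, r was 0.85, and within groups and within slides it was 0.82 and 0.90. For TAP1 and NLRC5 r was 0.74 and rho 0.74 (permutation p = 6e-05 and 4e-05, adjusted p = 0.00025 and 0.00017), with 0.72 without the 2 farthest animals, 0.85 within groups and 0.78 within slides. CD74 had an r of -0.04 with TAP1 (rho -0.05, permutation p = 0.83 and 0.82, adjusted p = 0.86 and 0.82). In the RefSeq annotation of T2T-MMU8v2.0 PSMB9 and TAP1 are neighbouring protein-coding genes, followed by PSMB8 and TAP2.

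Outside the 10 genes, the probes whose signal was most like that of TAP1 over the 24 arrays belonged to AIM1 (Pearson's r 0.86), WDR44 (0.85), CCRL1 (0.83), LOC717363 (0.82) and LOC706971 (0.82). Those most like CD74 belonged to LOC720365 (0.90), ZNF274 (0.855), MAMU-B18 (0.85), MAPKBP1 (0.85) and RAB18 (0.85). These were picked as the highest of all named probes and carry no test.

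Among the other genes of the pathway, the class II chains have 24 probes for 11 symbols. All 24 were lower than in controls 7 days after 6.7-Gy TBI (median -0.53) and 23 of 24 after 7.4-Gy TBI (median -0.69), and on day 4 there were 23 lower after 6.7-Gy TBI (median -0.43) and 15 after 7.4-Gy TBI (median -0.0929). None of them passed the test against controls. From day 7 to day 12 all 24 were higher (median 0.49), again with none past the adjusted p. MAMU-DQA1, the chain with the lowest mean change, was at -1.42 and -0.80 on day 7, and between days 4 and 12 MAMU-DMB (0.88, adjusted p = 0.0318) and MAMU-DOA (0.49, adjusted p = 0.0164), parts of the molecules that edit class II loading, were higher.

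The class I heavy chains gave 33 probes for 7 symbols, of which 28 and 29 were lower than in controls on day 7 and none passed. Their medians between days had the same signs as those of the class II probes: 29 of 33 were lower on day 7 than on day 4 (median -0.23), as were 21 of 24 class II probes (median -0.39), and 31 were higher on day 12 than on day 7 (median 0.47) with none past the adjusted p. MAMU-F had the highest mean change, with 0.69 and 0.84 on day 12, and MAMU-B the lowest, with -0.33 and -0.10 on day 4. Macaque MHC genes are many and near-identical, so a probe can read several loci or miss an allele, and the median SD over controls was 0.62 for class I and 0.58 for class II probes. One probe with the symbol MAMU-DRB1 carries the description of a DQA chain. The values of single MHC symbols are therefore uncertain.

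Among the 8 further genes of class I loading none was called. ERAP2, which trims peptides in the endoplasmic reticulum, was 0.98 higher on day 7 than on day 4 (adjusted p = 0.0298). SAR1B, a component of vesicle coats, was 0.75 lower than in controls 4 days after 7.4-Gy TBI (adjusted p = 0.0494), and it passed in 5 of the 24 fits that left out 1 animal. Of 16 other proteasome subunits 1 passed between days, PSMB7, at -0.35 from day 4 to day 12 (adjusted p = 0.0407), where 6.8% of all probes passed downward. The list medians from day 4 to day 7 and from day 4 to day 12 were 0.02 and 0.03, against 0.05 and 0.09 over all tested probes. The highest and the lowest mean change over the 6 comparisons with controls belonged to PSMB5, a constitutive catalytic subunit, at 0.39 and 0.33 on day 4, and to PSMA2, at -0.22 and -0.24.

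Of the 7 factors that act on MHC promoters, RFX5, which binds class II promoters, passed from day 4 to day 12 (0.88 higher, adjusted p = 0.00162), and CREB1 had the lowest mean change, with -0.62 and -0.14 on day 12. Of 13 genes of the interferon gamma axis, IRF8 was higher on days 7 and 12 than on day 4 (0.45 and 0.63, adjusted p = 0.043 and 0.021), and IFNGR1 (0.36) and IRF2 (0.41) were higher on day 12 (adjusted p = 0.0288 and 0.0201). On day 7 this was 1 of 13 upward and on day 12 it was 3 of 13, where 7.63% and 10.7% of all probes passed upward. IDO1, a tryptophan-degrading enzyme that interferon gamma induces, was at -1.30 from day 4 to day 7 (adjusted p = 0.0373), the 1 gene of 13 past the test downward, as 5.56% of all probes were. In 1 of the 4 animals of day 4 after 6.7-Gy TBI, animal 4, it stood at 3.76 (group mean 0.92, SD 1.92), and without this animal the difference was -0.83 (adjusted p = 0.00417), under a fold of 2. IDO1 passed in 18 of the 24 fits without 1 animal (adjusted p up to 0.0733). GBP2, a guanylate-binding protein, had the highest mean change and stood at 1.096 at 12 days after 7.4-Gy TBI without passing the test.

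Of 5 costimulatory genes CD86 (-0.54, adjusted p = 0.00676) and PDCD1LG2 (-0.73, adjusted p = 0.015) were lower on day 7 than on day 4, where 5.56% of all probes passed downward. CD40 and CD80 were at 0.33 and -0.46 on day 4 and -0.22 and -0.92 at 7 days after 7.4-Gy TBI, with neither past the test. The 5 class II processing genes gave none past the adjusted p between days. CTSB, a lysosomal protease, was at 0.44 and CTSH, another, at -0.605 at 4 days after 7.4-Gy TBI.

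With 1 animal left out, RFX5, CD86 and PDCD1LG2 passed in all 24 fits. ERAP2, IRF8 (for each day), IFNGR1, IRF2, MAMU-DMB, MAMU-DOA and PSMB7 passed in 13 to 22.

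Among the genes of lipid and related presentation, FCGRT, the neonatal Fc receptor, which also pairs with B2M, was 0.53 higher on day 7 and 0.64 higher on day 12 than on day 4 (adjusted p = 0.00386 and 0.00395), and it passed for both days in all 24 fits without 1 animal. The probe of CD1C, a lipid-presenting molecule of dendritic and B cells, was above background in all 4 controls and not well above background in any irradiated animal. It passed the filter through the controls alone, and so had to differ, and its calls are not given as results. Its signal was at least 1.87-fold and 1.94-fold lower than in controls on day 4 at the lower and the higher dose, and at least 2.27-fold lower at 7 days after 7.4-Gy TBI. The bound takes the higher of the probe's own signal and the lowest signal well above background on each array.

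**Figure D4:**
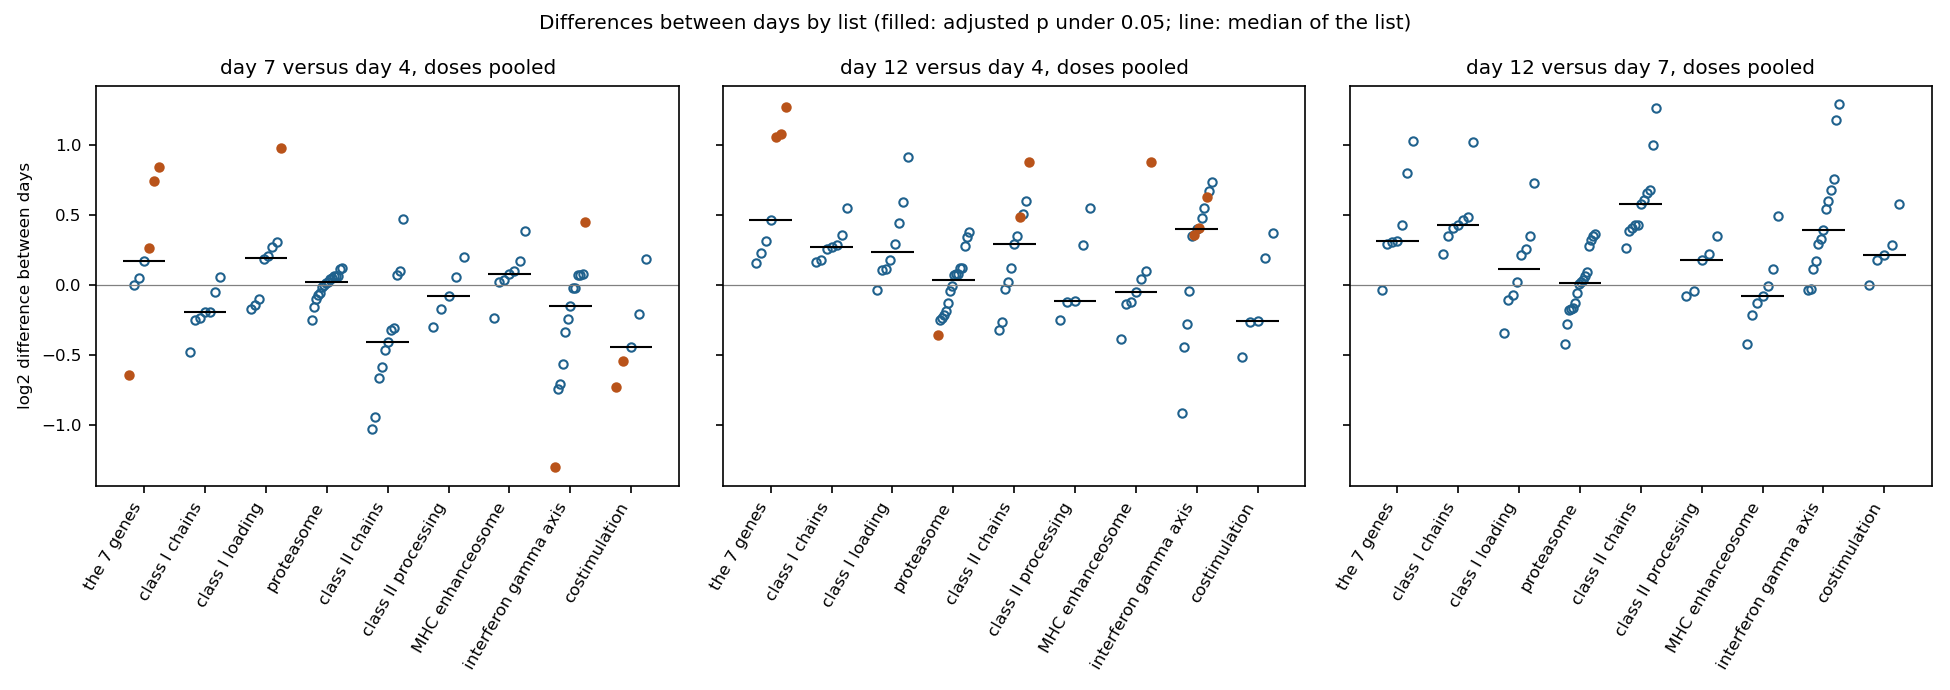
Differences between days with the doses pooled (vertical axis, log2) for the 7 genes and for 8 lists of other genes of the pathway (horizontal axis), each point a gene by its brightest probe, filled at an adjusted p under 0.05, with the list median as a line. PSMB9 and TAP1 rose from day 4 to days 7 and 12 while the proteasome list had medians of 0.02 and 0.03, and all 11 class II and all 7 class I chains were higher on day 12 than on day 7 with none past the adjusted p.

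Markers of several cell types moved over the same days. Of all probes, 7.63% passed the adjusted p upward and 5.56% downward from day 4 to day 7, and 10.7% and 6.8% from day 4 to day 12. In bulk tissue fewer cells of a type and less RNA per cell cannot be told apart. Of 10 enterocyte markers 4 fell 4 days after 7.4-Gy TBI and 2 after 6.7-Gy TBI (3.1% and 1.23% of all probes), and 4 rose from day 4 to day 7, while 3 were lower on day 7 without passing (down to -0.54). Of the 10, 3 rose from day 4 to day 12 (median of the list 0.45). VIL1, a brush border protein, was at -1.32 and -1.27 on day 4 (adjusted p = 0.00106 and 0.000847) and 1.096 higher on day 7 than on day 4 (adjusted p = 8.43e-05). The summed log2 level of the list was 9.24 to 9.71 in controls, 7.75 to 9.35 and 9.06 to 9.27 on day 4 at the lower and the higher dose, 9.39 to 9.47 and 8.97 to 9.67 on day 7, and 9.60 to 9.84 and 8.98 to 9.36 on day 12. Signals were summed before the log, for every marker list, so the sum follows the brightest markers. The mean log2 level of the enterocyte markers had a median of 3.61 in controls, 3.38 and 3.26 on day 4, 3.47 and 3.47 on day 7, and 3.70 and 3.51 on day 12. The part of the enterocyte markers in the PSMB9 and TAP1 differences was not tested.

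Alongside CD74, 5 of 7 macrophage markers fell from day 4 to day 7, among them the receptor CSF1R (-0.71, adjusted p = 0.000698), and none of the 7 was at or near background. All 7 were lower on day 12 than on day 4 (median -0.23), and 2 passed. The summed level of this list was 5.53 to 6.50 and 6.32 to 6.52 on day 4 and 5.45 to 5.82 and 5.70 to 5.90 on day 7, with 5.77 to 6.20 in controls. Of 9 T and NK cell markers 4 fell from day 4 to day 7, including CD3G (-0.71, adjusted p = 0.00702), and 2 were higher without passing (up to 0.18). Their summed level was 5.44 to 6.93 and 5.79 to 6.17 on day 4 and 5.39 to 5.91 and 5.26 to 5.68 on day 7, with 5.57 to 6.71 in controls.

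Of 6 tested dendritic cell markers 2 fell between these days, CCR7 (-1.003, adjusted p = 0.0323) and CLEC9A. The CLEC9A probe was above background in 3 and 4 of 4 animals on day 4, in 1 of 4 in each group of day 7 and in all 4 animals of day 12, when it was higher than on day 7 (adjusted p = 0.023). From day 4 to day 12 CCR7 (-1.58, adjusted p = 0.0076) and FCER1A (-1.62, adjusted p = 0.0143) fell and XCR1 rose (0.82, adjusted p = 0.00381). The summed level of the list was -0.81 to -0.25 and -1.09 to -0.65 on day 4 against -1.14 to -0.96 and -2.21 to -1.54 on day 7, with -0.07 to 0.36 in controls. The B cell marker CD79B was at 0.23 from day 4 to day 7 (adjusted p = 0.49). MS4A1, which defines B cells, passed the filter through the controls alone and was above background on 9 of 24 arrays, so no difference between days is given for it. The part of these cells in the CD74 difference was not tested.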

How the data were processed

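Members and gene lists were chosen with earlier results of these data known. The authors read the arrays with Feature Extraction 11.0.1.1, per the file headers, which gave each spot a background-subtracted intensity. Their deposited normalized table holds log2 signals minus the 75th percentile of each array, and served here for probe symbols. Flags for outliers, saturation and signal well above background were deposited with each spot.

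Log2 signals were computed again from the deposited intensities: control spots and outlier spots (where another spot of the probe remained) were left out, spots averaged per probe, and the array's 75th percentile subtracted. A probe entered the test if all arrays of some group had it well above background (36108 of 43603). The fit used limma (version 3.58.1) with 7 group means over 24 arrays, under R 4.3.3 with the data.table package, version 1.17.8. Conditions came from the sample titles. The protocol text of the labels gives 21 days for the arrays that title, day field and methods call day 12, and day 12 was used. Nothing pairs animals between groups.

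Named were all members with a probe. Of the pathway lists the rule took genes called against controls and the gene with the highest and with the lowest mean change over the 6 comparisons. Others, those that passed between days, were chosen after their values were seen, and marker genes are examples from fixed lists. Lists were of class I chains, class I loading, proteasome, class II chains, class II processing, MHC promoter factors, the interferon gamma axis, costimulation, and CD1 and related genes, and markers of B, plasma, T and NK, dendritic, smooth muscle, erythroid and endothelial cells, macrophages and enterocytes. Correlations used 100000 permutations. Alternatives were normexp with an offset of 50 (on spot and background medians, chosen after seeing the data), quantile normalization, no filter, other fits of the spread, the methods' t-test, slide, position and replicate blocks, the mean of a gene's probes, and each animal left out (for the other pathway genes, chosen after seeing the data). Promoter and protein sequences were not used here. Precision is limited by how many arrays there are.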

Additional observations from a re-analysis of the deposited data

Results flagged for a closer look

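Differences between irradiated groups of different days at an adjusted p under 0.05 by limma are repeated here with their values. No unirradiated animals were labelled day 7 or day 12. From day 4 to day 7, with doses pooled, the log2 difference was -0.64 for CD74, 0.74 for TAP1, 0.26 for the brightest TAPBP probe, and 0.84 and 0.67 for the PSMB9 probes. From day 4 to day 12 it was 1.05 for TAP1, 1.08 for NLRC5, 0.68 for the second TAPBP probe, and 1.27 and 1.34 for the PSMB9 probes. Day and array position cannot be told apart in these comparisons. In 60 sets of 4 animals (12 probes in each group of that size) no animal lay apart from the other 3 by Dixon's criterion.

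Between the same days, other cell type markers moved as follows. All 7 endothelial markers were lower on day 7 and on day 12 than on day 4. Of them 2 and 3 passed, where 5.56% and 6.8% of all probes passed downward. Among these were KDR on day 7 (-0.81, adjusted p = 0.00481) and VWF on day 12 (-1.34, adjusted p = 0.00403). Of 5 plasma cell markers 3 were higher and 2 lower on day 12 than on day 4 (median 0.02), and 1 passed, SDC1 (0.70, adjusted p = 0.0123). Of 3 erythroid markers HBB was 2.15 higher on day 12 than on day 4 (adjusted p = 0.0111) and 3.37 higher than on day 7 (adjusted p = 0.00766), while HBA2 and AHSP did not pass. Against controls HBB was at -6.11 and -5.88 on day 4 (adjusted p = 1.18e-05 and 1.69e-05), and HBA2 and AHSP lay between -0.30 and -0.0539 without passing. Neither of 2 smooth muscle markers passed.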

How the results depend on the processing

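The 1 gene called 4 days after 7.4-Gy TBI, PSMB9, became 0 under 5 alternatives: quantile normalization (-0.93, adjusted p = 0.0486, under a fold of 2), the mean of its probes (-0.96, adjusted p = 0.0472), the methods' t-test (adjusted p = 0.106), the slide as a block (-0.98, adjusted p = 0.103) and the array position as a covariate (-1.98, adjusted p = 0.151). With 1 animal left out the count was 0 to 2: it was 0 without control 1, 2 or 3 or 7.4-Gy day 4 animal 1, 3 or 4, and 2 without control 4. The 4 genes past the adjusted p from day 4 to day 7 became 2 after quantile normalization and with the slide as a block, 1 without the filter on dim probes, and 1 to 4 with 1 animal left out. From day 4 to day 12, leaving out 1 animal gave 1 to 3 genes called and 1 to 4 past the adjusted p. PSMB10 was the fourth, without 6.7-Gy day 4 animal 4 (0.62, adjusted p = 0.0245), and NLRC5 lost its call without 6.7-Gy day 12 animal 1 (adjusted p = 0.0947).

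Replicate numbers do not pair animals: over 62 pairs with the same number the median correlation of deviations was 0.03 (-0.26 to 0.36). With the replicate number as a block TAP1 differed by 0.74 from day 4 to day 7 (adjusted p = 0.0523), NLRC5 by 0.96 from day 4 to day 12 (adjusted p = 0.08), and CD74 was at -0.0353 at 12 days after 7.4-Gy TBI, the opposite sign.

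Other changes of sign were in values that did not pass the test, and their cause was not tested. With normexp TAPBP was at -0.0465 on day 4 and PSMB9 at -0.0398 at 7 days after 7.4-Gy TBI, and B2M at 0.03 from day 4 to day 7. After quantile normalization TAPBP was at 0.0588 and B2M at 0.0117 on day 4 and TAP1 at -0.0744 at 7 days after 6.7-Gy TBI, and B2M was at 0.0271 and CD74 at 0.10 on day 4 and B2M at 0.10 at 12 days after 7.4-Gy TBI. With the slide as a block PSMB10 was at 0.0425 on day 7 and B2M and CD74 at 0.15 and -0.32 at 12 days after 7.4-Gy TBI, CD74 at 0.0186 at 12 days after 6.7-Gy TBI, and NLRC5 at -0.0114 from day 4 to day 7. With the position as a covariate TAPBP and CD74 were at -0.0849 and 0.47 at 4 days after 7.4-Gy TBI. As the mean of its probes TAPBP was at -0.32 on day 4 and -0.16 at 7 days after 7.4-Gy TBI and -0.0893 at 7 days after 6.7-Gy TBI, and B2M at 0.19 at 12 days after 7.4-Gy TBI.

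With 1 animal left out the following crossed 0. After 6.7-Gy TBI, NLRC5 ran from -0.58 to 0.0276 on day 4; TAP1 from -0.21 to 0.20, NLRC5 from -0.47 to 0.14 and PSMB9 from -0.40 to 0.0154 on day 7; and TAP1 from -0.10 to 0.35, PSMB9 from -0.17 to 0.30, PSMB10 from -0.11 to 0.14 and CD74 from -0.40 to 0.26 on day 12. After 7.4-Gy TBI, NLRC5 ran from -0.51 to 0.10 and CD74 from -0.20 to 0.18 on day 4; TAP1 from -0.43 to 0.10, PSMB9 from -0.19 to 0.16, PSMB10 from -0.17 to 0.0454 and NLRC5 from -0.51 to 0.0906 on day 7; and B2M from -0.24 to 0.0206 and CD74 from -0.19 to 0.33 on day 12. From day 4 to day 7 B2M ran from -0.0748 to 0.0756 and NLRC5 from -0.0418 to 0.20, and from day 4 to day 12 CD74 from -0.0055 to 0.32.

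The methods' t-test at an unadjusted p under 0.05 and a fold of 2 passed 1 of the 7 genes, PSMB9, at 4 days after 7.4-Gy TBI, among 1083 probes, and 0 in the other comparisons, with 367 to 663 probes. After Benjamini-Hochberg adjustment it called 125 probes in the first, 2 at 7 days after 6.7-Gy TBI and 0 in the remaining 4.

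The position as a covariate was estimated only for day 4 against controls and day 12 against day 7. Normexp was planned on mean signals and run on medians.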
